A study of Mus musculus with 6 samples.

Results

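Glo1 and the genes beside it on mouse chromosome 17 are described here in liver RNA. The members are Zfand3, Btbd9, Glo1, Dnah8, Glp1r and AC165951.1, 6 of the 55487 genes in the deposited tables. They were chosen as neighbours between 30 and 31 Mb (GRCm38) to see whether the higher Glo1 level of one group was shared along the chromosome. The SCADD and WT levels of these genes therefore entered the choice, and their differences are given below as descriptions without a test.

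The libraries were made from polyA RNA of frozen livers, taken from males aged 8 weeks. Animals named SCADD were of the inbred substrain BALB_cBYJ, which lacks working short-chain acyl-CoA dehydrogenase, and animals named WT were of the substrain BALB_cJ. There were 3 animals in each group, described by the submitters as biological replicates, and all were fed standard chow. Genotype and substrain are the same split of these 6 animals, so the enzyme defect and any other difference between the substrains cannot be told apart.

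Gene totals were 16948986 to 23912744 reads in SCADD libraries and 23991104 to 27148756 reads in WT libraries. Unmapped reads made up 25.05% to 36.65% of SCADD libraries and 13.58% to 16.36% of WT libraries. The part of this gap in the results below was not tested. Acads, the gene of the deficient enzyme, had 97.0 to 104 CPM in SCADD livers and 166 to 196 CPM in WT livers, where CPM is the read count scaled to the gene total of its library with TMM factors. All 6 hepatocyte markers examined were detected in every library, with summed levels of 92080 to 133486 CPM in SCADD livers and 100987 to 150626 CPM in WT livers.

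Glo1 encodes glyoxalase 1, the enzyme that uses glutathione to remove methylglyoxal, a reactive by-product of glycolysis that damages proteins and DNA. Hagh, glyoxalase 2, then releases D-lactate and returns the glutathione. Mouse geneticists also know Glo1 as a gene whose copy number varies among inbred strains, and DNA was not measured in these libraries. Of its neighbours, Dnah8 encodes a dynein heavy chain of the sperm tail, Glp1r the receptor for the gut hormone GLP-1, Btbd9 a BTB-domain adaptor of Cullin 3 ubiquitin ligases, and Zfand3 a zinc finger protein. AC165951.1 is annotated as an antisense RNA that overlaps Glp1r.

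From low to high coordinates the order is Zfand3, Btbd9, Glo1, Dnah8, Glp1r and AC165951.1. The stretch from the start of Zfand3 to the end of Glp1r covers 936 kb (chr17:30004733-30940791). GENCODE M21 places 23 genes in it, of which 17 are not members. Only 2 of those 17, AC113540.1 and AC165962.1, had at least 10 reads over the 6 libraries, and 10 had none.

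Glo1 was 3.62-fold higher in SCADD livers, and an antisense RNA on its Btbd9 side, Dnah8 and AC165951.1 were also higher there. Zfand3 differed by less than the spread among animals. None of the 20 nearest genes tested beyond the ends of the stretch passed the test, beside 7.02% of all tested genes. Every SCADD library lay above every WT library for 3 of the 6 members, Glo1, Dnah8 and AC165951.1. The same held for 14.9% of all 13498 tested genes, and edgeR's quasi-likelihood test called 4.22% of tested genes higher in SCADD livers. Since the members were picked on this contrast, nothing is read from that comparison. After the filter on low counts 5 of the 6 members entered the fit, Dnah8 and AC165951.1 through their SCADD reads alone, and Glp1r did not.

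**Figure D1:**
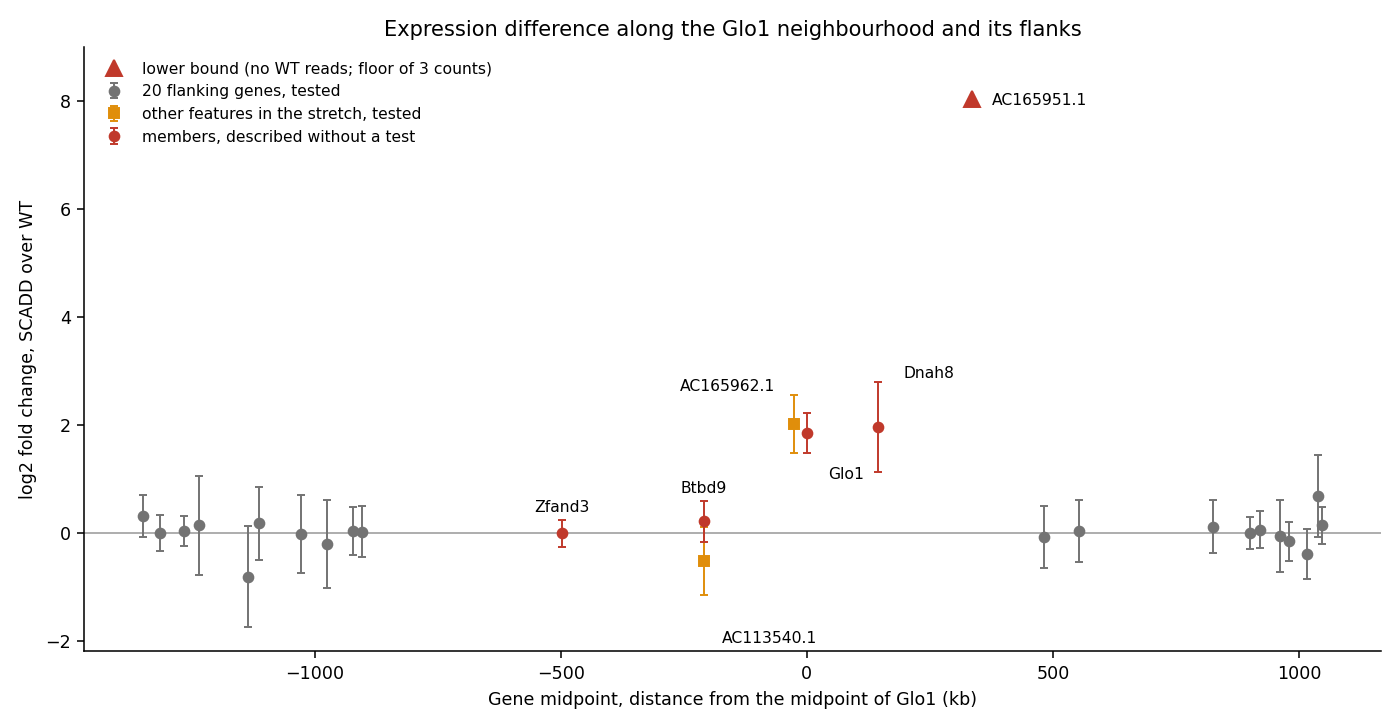
Log2 fold change of SCADD over WT (edgeR, with 95% intervals) against the distance of each gene's midpoint from that of Glo1, in kb. AC165962.1, Glo1 and Dnah8 lie near 2 and the lower bound of AC165951.1 at 8.04, while Zfand3, Btbd9, AC113540.1 and the 20 flanking genes have intervals that include 0.

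Glo1 (ENSMUSG00000024026, chr17:30584936-30626871, minus strand) had 942, 1197 and 992 CPM in SCADD replicates 1, 2 and 3, and 279, 313 and 273 CPM in WT replicates 1, 2 and 3. The groups did not overlap, and the lowest SCADD library was about 3 times as high as the highest WT library. Means were 1044 ± 135 CPM in SCADD livers and 288 ± 21.9 CPM in WT livers (SD, n = 3 each). The log2 fold change was 1.86, with an SE of 0.17 and a 95% interval of 1.49 to 2.23.

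In each SCADD library Glo1 was among the 124 most abundant genes by reads, at ranks 124, 99 and 122, and in WT libraries it stood at ranks 395, 376 and 441. It took 0.0966%, 0.125% and 0.0944% of gene reads in SCADD libraries and 0.0292%, 0.0299% and 0.0268% in WT libraries. The difference was of the same size in TPM, which also divides by transcript length. Glo1 had 895, 1178 and 747 TPM in SCADD livers and 281, 289 and 252 TPM in WT livers.

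The mean length of its transcripts, weighted by RSEM's abundance estimates, was 1322 ± 69.1 bases in SCADD livers and 1275 ± 29.0 bases in WT livers (SD, n = 3 each), and the groups overlapped. The share of its stranded reads on the opposite strand was 0.0751% ± 0.0200 in SCADD livers and 0.0354% ± 0.0328 in WT livers (SD, n = 3 each), again with overlap.

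Summed markers of biliary epithelium were 28.9 to 41.1 CPM in SCADD livers and 44.7 to 52.1 CPM in WT livers, with all 6 genes detected in both groups. Summed markers of endothelium were 90.8 to 151 CPM in SCADD livers and 158 to 166 CPM in WT livers, with all 5 detected. Both sums were lower in every SCADD library, while their genes were not uniform. Spp1, a secreted phosphoprotein, made up most of the biliary sum, at 32.9 ± 5.94 CPM in SCADD livers and 45.0 ± 3.05 CPM in WT livers, and Clec4g, a sinusoidal lectin, most of the endothelial sum, at 74.4 ± 26.2 CPM in SCADD livers and 115 ± 2.20 CPM in WT livers (SD, n = 3 each). Krt7, Sox9, Cftr, Kdr and Stab2 overlapped between groups, and Stab2 had the higher mean in SCADD livers, 16.7 CPM against 13.7 CPM in WT livers. The part of these markers in the Glo1 difference was not tested. Kupffer cell and stellate cell sums overlapped between groups, at 142 to 255 CPM and 260 to 508 CPM in SCADD livers and 182 to 253 CPM and 329 to 456 CPM in WT livers. In whole liver, fewer cells of a type and less RNA per cell cannot be told apart.

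**Figure D2:**
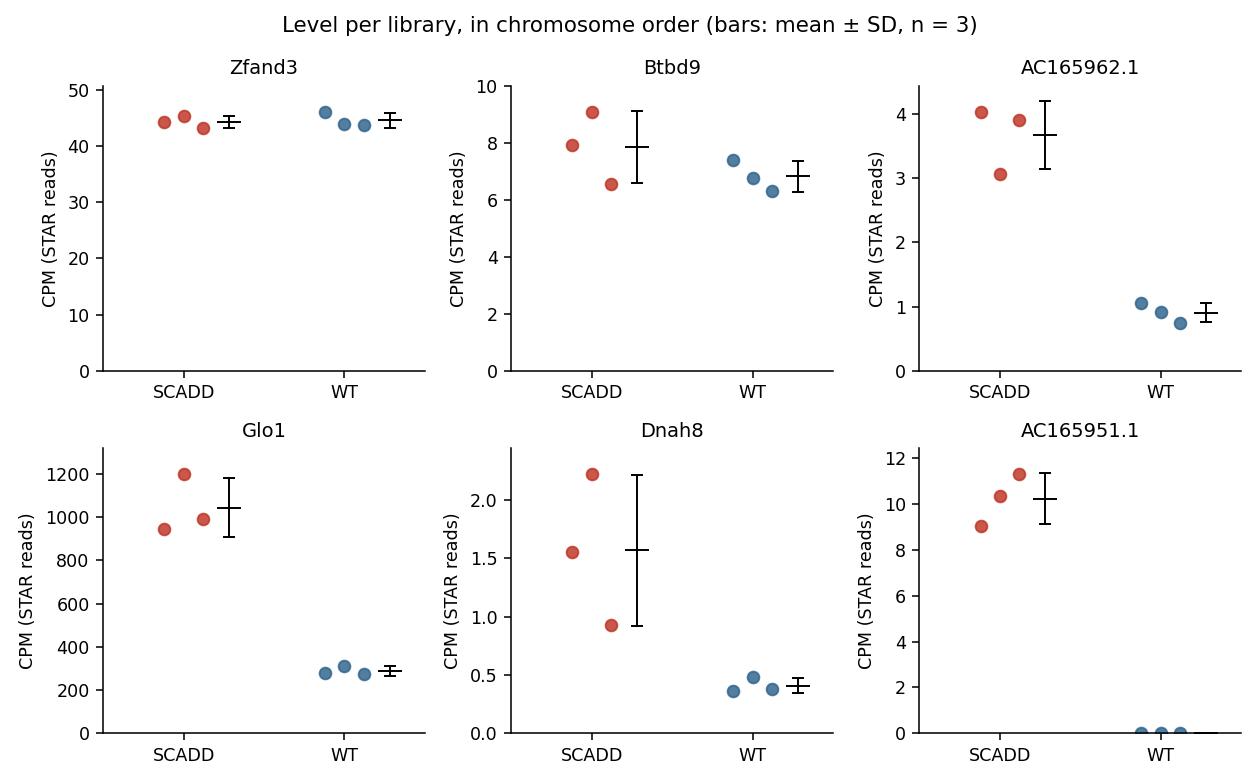
CPM of 5 members and of the antisense RNA AC165962.1 in each of the 3 SCADD and 3 WT libraries, in chromosome order, with mean ± SD (n = 3) beside the points. Zfand3 and Btbd9 overlap between groups, the other 4 do not, and AC165951.1 is at 0 in each WT library.

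The promoter windows of Glo1 and Dnah8, both higher in SCADD livers by CPM, are shown as RefSeq gives them. They are from GRCm38.p6, run from 250 bases before to 50 after the start and are read along each gene's strand. Capitals mark matches on either strand to a CCAAT box (CCAAT) or a GC box (GGGCGG, whose reverse complement is CCGCCC). The Glo1 window is chr17:30612610-30612909 on the minus strand and the Dnah8 window is chr17:30626686-30626985 on the plus strand.
Glo1: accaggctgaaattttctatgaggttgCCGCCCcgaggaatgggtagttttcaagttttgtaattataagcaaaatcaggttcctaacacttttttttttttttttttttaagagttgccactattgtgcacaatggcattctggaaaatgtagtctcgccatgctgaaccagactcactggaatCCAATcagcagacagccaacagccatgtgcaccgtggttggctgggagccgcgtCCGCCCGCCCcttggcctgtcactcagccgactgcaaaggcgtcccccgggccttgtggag
Dnah8: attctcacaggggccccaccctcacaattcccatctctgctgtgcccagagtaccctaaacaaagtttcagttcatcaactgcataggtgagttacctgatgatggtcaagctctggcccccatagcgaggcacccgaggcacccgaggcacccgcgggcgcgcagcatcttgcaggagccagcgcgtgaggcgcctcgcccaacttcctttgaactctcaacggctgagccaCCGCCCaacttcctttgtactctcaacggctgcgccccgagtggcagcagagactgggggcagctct
Glo1 held 1 CCAAT box and 3 GC boxes, of which 2 overlap, and Dnah8 held 1 GC box. Of 32851 RefSeq promoter windows of the same length, 37.4% held a CCAAT box and 35.7% a GC box. The core of the antioxidant response element (TGACNNNGC), which 12.4% of windows held, was in neither. Windows were found for 4 of the 6 members, the other two being Zfand3 and Glp1r.

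AC165962.1 (ENSMUSG00000117725, chr17:30576300-30582594, plus strand) begins at the 5' end of Btbd9 on the opposite strand and ends before the 3' end of Glo1. It was not among the members and was tested. Since it lies inside the stretch that was chosen on this contrast, its p-value is not independent of that choice. It had 99, 65 and 63 reads in SCADD libraries and 29, 21 and 20 reads in WT libraries, or 4.04, 3.07 and 3.91 CPM in SCADD livers and 1.05, 0.918 and 0.751 CPM in WT livers. The antisense RNA was higher in 3 of 3 SCADD livers, at a log2 fold change of 2.01 with an SE of 0.24 (edgeR's quasi-likelihood test, adjusted p = 0.00108). Set against Glo1 in the same library, it had 3.60 ± 0.912 reads per 1000 Glo1 reads in SCADD livers and 3.15 ± 0.539 in WT livers (SD, n = 3 each). It shares 189 exonic bases with Btbd9, and the deposited count is of reads on its own strand.

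Dnah8 (ENSMUSG00000033826, chr17:30624354-30877365, plus strand) lies head to head with Glo1, whose outermost annotated start falls within it. It had 38, 47 and 15 reads in SCADD libraries and 10, 11 and 10 reads in WT libraries. In CPM these were 1.55, 2.22 and 0.931 in SCADD livers and 0.362, 0.481 and 0.375 in WT livers. The groups did not overlap, with a spread among SCADD animals that was wide beside that among WT animals. The log2 fold change was 1.96 with an SE of 0.38 and a 95% interval of 1.13 to 2.80.

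Per 1000 Glo1 reads, Dnah8 had 1.64, 1.85 and 0.938 reads in SCADD libraries and 1.297, 1.54 and 1.38 reads in WT libraries, so on this ratio the groups overlapped. In TPM it had 0.54, 0.89 and 0.22 in SCADD livers and 0.29, 0.26 and 0.10 in WT livers, where the groups overlapped. The log2 ratio of mean TPM was 1.04 with a pseudocount of 0.1 and 0.35 with a pseudocount of 1. At means of 0.550 TPM in SCADD livers and 0.217 TPM in WT livers, the pseudocount itself lowers this ratio. Its mean transcript length was 2665 ± 411 bases in SCADD livers and 2169 ± 666 bases in WT livers (SD, n = 3 each), with overlap.

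Markers of the cells that Dnah8 is known from were at or near 0. All 5 germ cell markers, Tnp1, Prm1, Prm2, Acrv1 and Ddx4, had no reads in any library. The 5 motile cilium markers summed to 0.0472 to 0.163 CPM in SCADD livers and 0.188 to 0.350 CPM in WT livers, and 2 of them, Tekt1 and Hydin, were at 0 in every SCADD library. Of 16 other dynein heavy chains, 13 had too few reads to test. Dnah17, another axonemal heavy chain, on chromosome 11, had 9.75, 14.8 and 7.88 CPM in SCADD livers and no reads in WT livers. It entered the fit through its SCADD reads alone, so no test of it is given. Against a floor of 3 reads over the WT group it was at least 287-fold higher in SCADD livers. Dync1h1, the heavy chain of cytoplasmic dynein, had a log2 fold change of 0.40 (adjusted p = 0.139 in edgeR's quasi-likelihood test) and Dync2h1, that of intraflagellar transport, 0.14 (adjusted p = 0.789).

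AC165951.1 (ENSMUSG00000117786, chr17:30920338-30963220, minus strand) had 222, 219 and 182 reads in SCADD libraries and 0 reads in each WT library. In CPM it had 9.06, 10.3 and 11.3 in SCADD livers, a mean of 10.2 ± 1.12 (SD, n = 3), and 0 in the 3 WT livers. A count of 0 among the 77563742 WT gene reads allows up to 3 reads over the group, or 0.0387 CPM, and against that floor the RNA was at least 263-fold higher in SCADD livers (log2 8.04). The bound was 7.42 to 7.51 (log2) when a WT library was left out, where the same floor rests on fewer reads, and it covers counting error only. In TPM it had 2.84, 3.37 and 2.31 in SCADD livers and was listed at 0 in WT livers.

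The annotation gives AC165951.1 a single transcript of 4014 bases in 3 exons, so its transcript length carried no information. Its first exon, in a gene whose reads were seen in SCADD libraries only, is chr17:30963070-30963220 on the minus strand of GRCm38, from the GENCODE M21 transcripts.
AC165951.1 exon 1: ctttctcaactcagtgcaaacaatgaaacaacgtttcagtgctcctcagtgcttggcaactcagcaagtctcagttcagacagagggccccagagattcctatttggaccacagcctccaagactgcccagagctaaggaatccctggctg
Per 1000 Glo1 reads it had 9.61, 8.63 and 11.4 reads in SCADD libraries.

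Glp1r (ENSMUSG00000024027, chr17:30901817-30940791, plus strand), which lies opposite AC165951.1, had 2 reads in SCADD replicate 1 and none in the other 5 libraries. Both groups were under the floor of 3 reads, so no fold is given and a difference was not detectable at this depth. The receptor is known from pancreatic islets. Islet markers (Ins1, Ins2, Iapp, Gcg and Pdx1) summed to at most 0.0472 CPM in SCADD livers and, in WT livers, to 2.35 CPM in replicate 1 and 0 in replicates 2 and 3. All 5 were detected in WT replicate 1, where Glp1r had no reads. Of 6 other genes of the glucagon and GLP-1 system, 2 were expressed enough to test. Neither was called, a count too small to set against the 7.02% of all tested genes. Gcgr, the glucagon receptor, had 128 ± 12.4 CPM in SCADD livers and 126 ± 10.8 CPM in WT livers (SD, n = 3 each), and Dpp4, the protease that inactivates GLP-1, had 183 ± 16.4 CPM in SCADD livers and 259 ± 25.9 CPM in WT livers (edgeR's quasi-likelihood test, adjusted p = 0.0705).

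Btbd9 (ENSMUSG00000062202, chr17:30215524-30576488, minus strand) gave different answers in the 2 deposited kinds of table. By STAR's reads its groups overlapped, with 195, 193 and 106 reads in SCADD libraries and 205, 155 and 168 reads in WT libraries. In CPM it had 7.95, 9.11 and 6.58 in SCADD livers and 7.42, 6.78 and 6.31 in WT livers, which overlap. The log2 fold change was 0.21 with an SE of 0.17 and a 95% interval of -0.17 to 0.58.

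RSEM, which assigns reads to transcripts and also uses those that could come from several genes, gave Btbd9 394, 418 and 203 expected reads in SCADD libraries and 224, 154 and 179 in WT libraries. That was 2.02, 2.17 and 1.92 RSEM reads for each STAR read in SCADD libraries and 1.09, 0.994 and 1.07 in WT libraries, and the groups did not overlap on this ratio. With RSEM's reads the log2 fold change of Btbd9 was 1.16. An antisense gene that lies wholly within a Glo1 exon, AC165962.3, had 0 STAR reads on its own strand in each SCADD library and 0 or 1 in WT libraries, and RSEM gave it 114 to 285 expected reads in SCADD libraries and 41.7 to 76.8 in WT libraries. RSEM's values may therefore not be strand-specific, which also touches its Btbd9 reads, TPM and lengths. For Glo1 the ratio of RSEM to STAR reads was 0.996 ± 0.0283 in SCADD libraries and 0.973 ± 0.00782 in WT libraries (SD, n = 3 each).

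The mean Btbd9 transcript, weighted by RSEM's estimates, measured 2239, 2009 and 2131 bases in SCADD livers and 4705, 4678 and 4461 bases in WT livers. All SCADD libraries lay far below all WT libraries, at means of 2126 ± 115 bases in SCADD livers and 4615 ± 134 bases in WT livers (SD, n = 3 each). In TPM, which rests on both the RSEM reads and this length, Btbd9 had 8.71, 12.5 and 5.40 TPM in SCADD livers and 2.06, 1.60 and 1.63 TPM in WT livers.

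Of the 25 annotated Btbd9 transcripts, which span 245 to 7058 bases, 2 are longer than 4500 bases and 21 are shorter than 2500 bases. Of those 21, 13 share exonic bases with AC174471.1, a gene annotated on the same strand that reaches from Btbd9 across Glo1 into AC165951.1 (chr17:30459502-30923831). AC174471.1 has 7 exons, 6 of which lie on Btbd9 exons (1255 shared bases, 6.90% of all Btbd9 exonic bases) and the other on AC165951.1 (246 shared bases). It had no STAR reads and no RSEM reads in any library. STAR counts a read that overlaps exons of 2 genes on the same strand for neither. Most of the 1528 exonic bases of AC174471.1 are shared in this way, so its STAR count of 0 carries little information. Whether the additional RSEM reads lie in those stretches was not tested, since the deposited tables hold totals per gene.

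**Figure D3:**
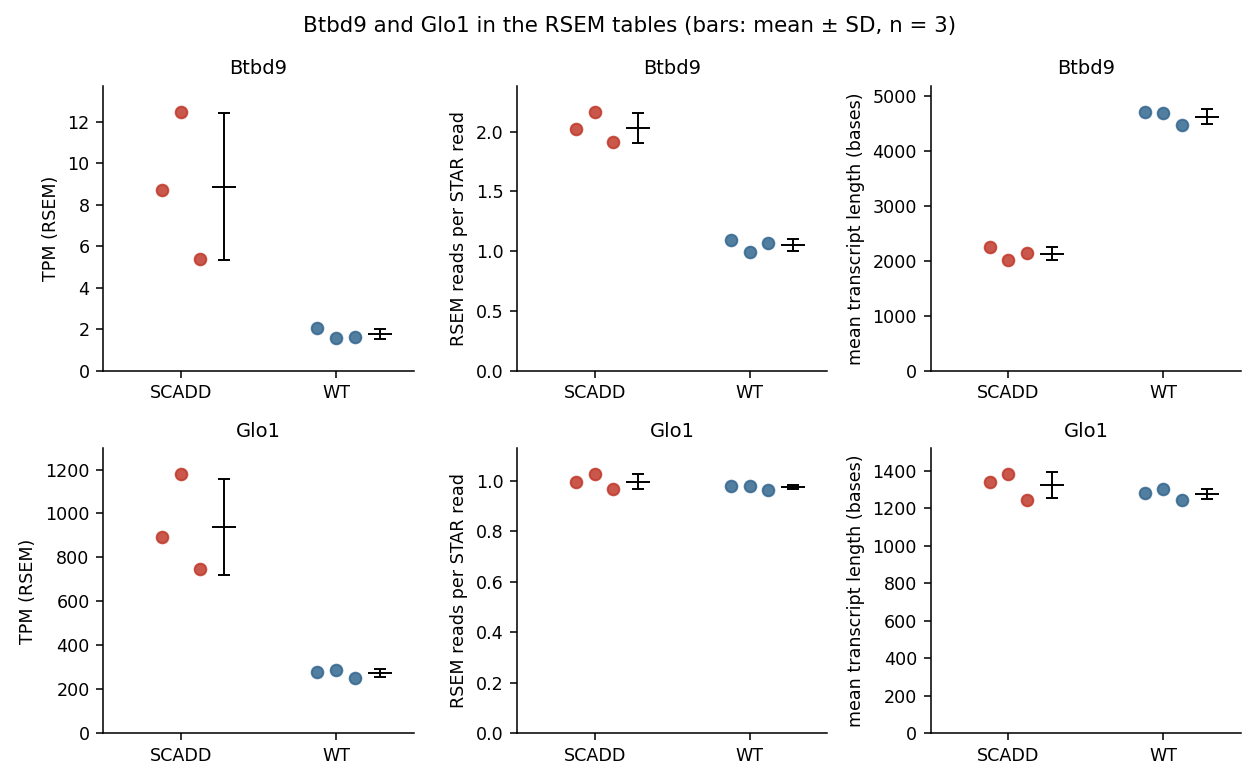
TPM, RSEM reads per STAR read and RSEM's mean transcript length in bases for Btbd9 (top) and Glo1 (bottom), per library in SCADD and WT livers with mean ± SD (n = 3). Btbd9 has about 2 RSEM reads per STAR read and transcripts near 2126 bases in SCADD livers, against about 1 and 4615 bases in WT livers, and for Glo1 both measures overlap between groups.

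The other feature with reads inside Btbd9, the processed pseudogene AC113540.1 in one of its introns, had 1.56 ± 0.572 CPM in SCADD livers and 2.21 ± 0.294 CPM in WT livers (SD, n = 3 each). It was not called (log2 fold change -0.52, SE 0.29, adjusted p = 0.319 in edgeR's quasi-likelihood test). None of 13 tested genes of the Cullin 3 ligases that work with BTB adaptors was called, beside 7.02% of all tested genes, and their median log2 fold change was 0.14. Among these, Spop had a value of 0.45 (edgeR's quasi-likelihood test, adjusted p = 0.0708) and Klhl9 of -0.40 (adjusted p = 0.106).

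Zfand3 (ENSMUSG00000044477, chr17:30004733-30210828, plus strand), at the low end of the stretch, had 44.3, 45.4 and 43.2 CPM in SCADD livers and 46.1, 43.8 and 43.8 CPM in WT livers. The groups overlapped and their means differed by less than the SD within either, 44.3 ± 1.07 CPM in SCADD livers and 44.6 ± 1.31 CPM in WT livers (SD, n = 3 each). The log2 fold change was -0.01 with an SE of 0.11, and a 95% interval of -0.26 to 0.24. Its transcripts averaged 1803 ± 88.7 bases in SCADD livers and 1798 ± 41.4 bases in WT livers (SD, n = 3 each). The 6 other genes of the Zfand family were tested and none was called, a count too small to set against the 7.02% of all tested genes, and their median log2 fold change was -0.11. Zfand5 had 0.34 (edgeR's quasi-likelihood test, adjusted p = 0.147) and Zfand1 -0.32 (adjusted p = 0.235).

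The share of stranded reads on the opposite strand overlapped between groups for the other members with enough reads. It was 0.988% ± 0.502 in SCADD livers and 0.197% ± 0.342 in WT livers for Btbd9. For Dnah8 it was 7.92% ± 7.72 in SCADD livers and 6.06% ± 5.25 in WT livers. Zfand3 had 0.0307% ± 0.0531 in SCADD livers and 0.0522% ± 0.0905 in WT livers (SD, n = 3 each throughout).

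Set against transcript length, the order of levels was the same at the top in both groups. By TPM, Glo1 was followed in SCADD livers by Zfand3 (24.4 ± 5.76 TPM), Btbd9 (8.87 ± 3.55), AC165951.1 (2.84 ± 0.530) and Dnah8 (0.550 ± 0.335). In WT livers Glo1 was followed by Zfand3 (25.8 ± 3.05 TPM), Btbd9 (1.76 ± 0.257) and Dnah8 (0.217 ± 0.102). All are mean ± SD of 3 livers, and the libraries of neighbours in either order did not overlap. The place of Btbd9 rests on RSEM's reads and length, which may not be strand-specific. By STAR's reads, which are not divided by length, AC165951.1 had the higher mean in SCADD livers. It had 10.2 ± 1.12 CPM and Btbd9 had 7.88 ± 1.27 CPM there. Glp1r came last in SCADD livers, at 0.01 TPM in 1 library and 0 in the others, and in WT livers Glp1r and AC165951.1 were both listed at 0 in every library.

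The 10 nearest genes on each side of the stretch were taken by position alone among those that passed the filter on low counts. Nearer genes with too few reads were therefore passed over. None of these 20 passed edgeR's quasi-likelihood test, and none had an unadjusted p under 0.05, whereas 7.02% of all tested genes were called in either direction and 22.7% had an unadjusted p under 0.05. DESeq2 called none either. The 947 calls behind the first share became 395 and 460 when WT replicate 2 or 3 was left out, 517 in the absence of SCADD replicate 1 and 1590 in that of SCADD replicate 3. The log2 fold changes of the 20 flanking genes ran from -0.81 (Gm26885) to 0.68 (AC090881.3) with a median of 0.02, beside a median of -0.00078 over all tested genes. In 18 of 20 the upper end of the 95% interval lay below 1.

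The tested gene nearest the Zfand3 end was Ccdc167, 288 kb away, with 8.79 ± 2.82 CPM in SCADD livers and 8.61 ± 0.926 CPM in WT livers (SD, n = 3 each). The tested gene nearest the Glp1r end was Abcg1, a cholesterol exporter 117 kb away, with 2.14 ± 0.513 CPM in SCADD livers and 2.26 ± 0.487 CPM in WT livers (SD, n = 3 each). Farther out, Cbs, which makes cystathionine on the route to cysteine and glutathione, had 150 ± 45.0 CPM in SCADD livers and 196 ± 22.6 CPM in WT livers (SD, n = 3 each; log2 fold change -0.39, adjusted p = 0.307 in edgeR's quasi-likelihood test). Pim1, a serine/threonine kinase, had a log2 fold change of 0.17, Ndufv3, a subunit of respiratory complex I, of 0.06, and Pde9a, a cyclic GMP phosphodiesterase, of 0.11.

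Other genes of the pathway in which Glo1 acts passed the test in both directions. Of 26 tested genes that handle methylglyoxal and glycation, supply glutathione or form and use triose phosphates, 1 was higher and 3 were lower in SCADD livers by edgeR's quasi-likelihood test (9 at an unadjusted p under 0.05). Over all tested genes 4.22% were higher, 2.8% were lower and 22.7% had an unadjusted p under 0.05. Chac1, 1 of the 3 called lower, entered the fit through its WT reads. The median log2 fold change of the 26 genes was -0.04. Leaving out SCADD replicate 1 or any WT replicate reduced these 4 calls to 1. Hagh, which completes the reaction that Glo1 begins, had 288, 306 and 295 CPM in SCADD livers and 249, 294 and 271 CPM in WT livers. These overlap, and the log2 fold change of Hagh was 0.13 with an SE of 0.14 (adjusted p = 0.649). Ldhd, which oxidises D-lactate, had a value of 0.41 (adjusted p = 0.214), and Park7, reported to act on glycation products, of 0.09 (adjusted p = 0.776).

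Among the 10 tested genes of methylglyoxal and glycation handling none was higher and 2 were lower, beside 4.22% and 2.8% of all tested genes, with a median log2 fold change of -0.09. Akr1b3, aldose reductase, which also reduces methylglyoxal, fell to 2.81, 2.12 and 2.23 CPM in SCADD livers, against 5.75, 5.68 and 4.58 CPM in WT livers. Its log2 fold change was -1.15 with an SE of 0.20 (edgeR's quasi-likelihood test, adjusted p = 0.00805), lower in 3 of 3 SCADD livers. Akr1a1 and Akr7a5, also aldo-keto reductases, were more abundant than Akr1b3 in both groups. Neither was called (adjusted p = 0.350 and 0.590 in the same test). Akr1a1 had 498 ± 43.9 CPM in SCADD livers and 416 ± 30.1 CPM in WT livers (SD, n = 3 each). Akr7a5 had 48.5 ± 6.88 CPM in SCADD livers and 54.2 ± 7.71 CPM in WT livers (SD, n = 3 each). Fn3krp, a kinase that removes sugar adducts from proteins, fell to 4.49 ± 0.504 CPM in SCADD livers, against 7.31 ± 0.580 CPM in WT livers (SD, n = 3 each; adjusted p = 0.0332 in the same test). Without any library other than SCADD replicate 3 it missed the threshold (adjusted p 0.0560 to 0.127).

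Among the 8 tested genes of glutathione supply the median log2 fold change was 0.33, with 1 called higher and 1 lower, against the same shares of all tested genes. Gsr, glutathione reductase, rose to 64.5, 63.3 and 56.7 CPM in SCADD livers, against 44.5, 40.7 and 39.9 CPM in WT livers (log2 fold change 0.56, SE 0.12, adjusted p = 0.0214 in edgeR's quasi-likelihood test). Without SCADD replicate 1 or any WT replicate Gsr missed the threshold (adjusted p 0.0526 to 0.116). Gclc, the catalytic subunit of the enzyme that limits glutathione synthesis, had 259, 333 and 187 CPM in SCADD livers and 157, 174 and 138 CPM in WT livers, and missed the threshold (adjusted p = 0.0586). Chac1, which breaks glutathione down, fell to 0.340 ± 0.0742 CPM in SCADD livers, against 0.868 ± 0.0956 CPM in WT livers (SD, n = 3 each; adjusted p = 0.0438). With 21 reads over the SCADD libraries and 67 over the WT libraries, Chac1 entered the fit through its WT reads, the group where it was higher. The Chac1 call was lost in each of the 6 fits that left out a library (adjusted p 0.0597 to 0.171).

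None of the 8 genes that form or use triose phosphates was called, a count too small to set against the 7.02% of all tested genes. Their median log2 fold change was -0.12. In edgeR's quasi-likelihood test 2 of them had an unadjusted p under 0.05, beside 22.7% of all tested genes. Tkfc, which phosphorylates dihydroxyacetone and glyceraldehyde, had 72.6 ± 19.3 CPM in SCADD livers and 104 ± 13.6 CPM in WT livers (SD, n = 3 each; log2 fold change -0.52, adjusted p = 0.129 in edgeR's quasi-likelihood test).

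**Figure D4:**
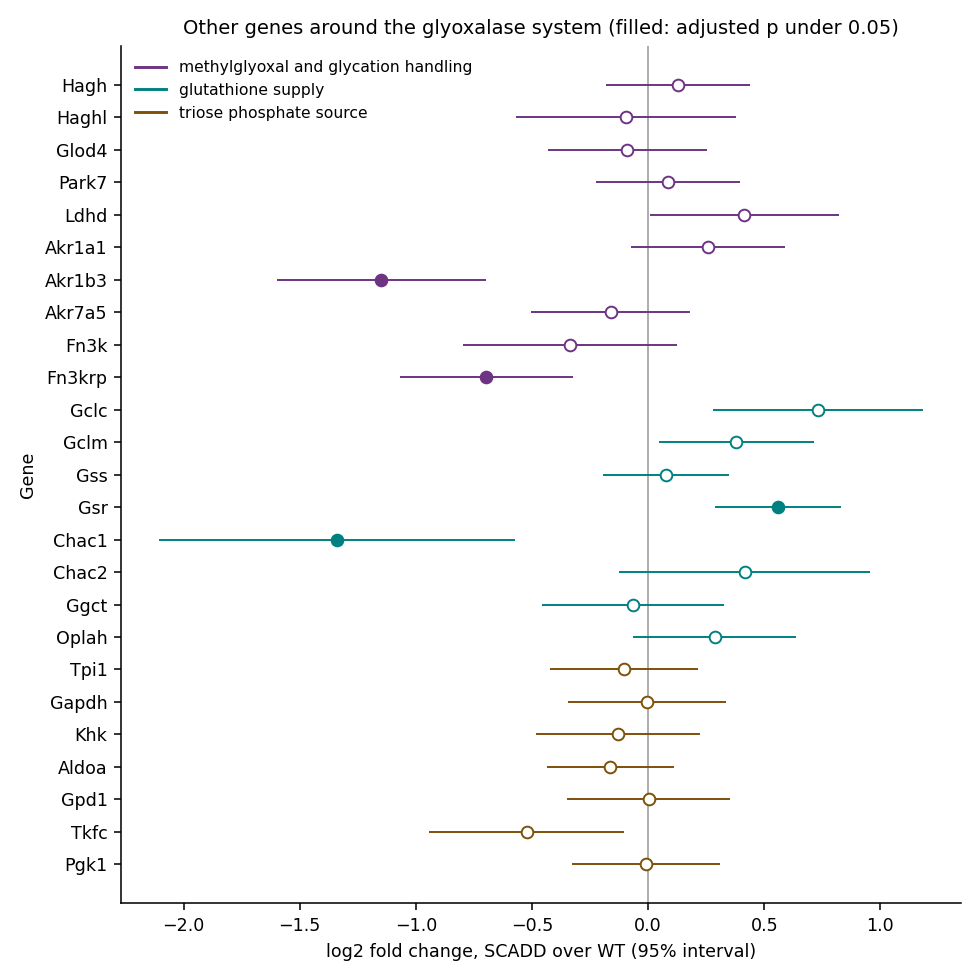
Log2 fold change of SCADD over WT (edgeR, bars are 95% intervals) for tested genes of methylglyoxal and glycation handling, glutathione supply and triose phosphates. Filled points passed the test at an adjusted p under 0.05, which are Akr1b3, Fn3krp and Chac1 below 0 and Gsr above 0. Chac1 entered the fit through its WT reads, the group where it was higher, so its call depends on the filter.

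The 5 genes outside the stretch whose log2 CPM followed Glo1 most closely over the 6 libraries, out of 11690 genes averaging 1 CPM or more, were Gpr135, Ugt3a1, Ttc7b, Clic5 and Dnah17, with Pearson's r of 0.995 to 0.997. Glo1 itself falls into 2 separate groups of 3 libraries, so r is set mainly by the difference between groups. Ugt3a1, a UDP-glycosyltransferase, averaged 301 CPM in SCADD livers and 94.8 CPM in WT livers. Clic5, a chloride channel family member, is also on chromosome 17 but at chr17:44188584-44280172, with 3.38 CPM in SCADD livers and 0.452 CPM in WT livers. Gpr135, an orphan receptor, averaged 2.44 CPM in SCADD livers and 0.574 CPM in WT livers.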

How the data were processed

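The submitters' processing notes name STAR 2.7.6a, RSEM 1.3.3 and the build GRCm38. The annotation release, the strand setting of RSEM and the read filters are not given in the sources used here. The authors deposited, per library, STAR read counts per gene (an unstranded column and 2 stranded ones) and RSEM expected counts, TPM, FPKM and mean transcript lengths. The deposited FPKM values were not used. The stranded column with 96.84% to 97.28% of stranded reads was used as deposited, without its summary rows (unmapped, multi-mapped, in no gene and ambiguous), whose shares were at most 36.65%, 13.13%, 2.168% and 1.532% of reads. Of 55487 gene IDs, 55227 matched GENCODE M21, which gave symbols and coordinates.

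Genes passing filterByExpr (minimum count 10) were fitted in edgeR 4.0.16 (R 4.3.3) with TMM factors, glmQLFit (robust) and glmQLFTest on all 6 libraries, with group as the only term. Benjamini-Hochberg adjustment ran over 13498 genes, with a threshold of 0.05. SE was taken as the size of the log2 fold change over the root of its F. Log2 ratios of mean TPM used pseudocounts of 0.1 and 1. P-values measure the spread among 3 animals a group. Strand shares and transcript lengths of members come from the tables and the contrast that chose them and are given without a test. Alternatives were RLE scaling, no filter, a filter of 1 CPM in 3 libraries, DESeq2 1.42.0, limma-voom 3.58.1, the unstranded column, RSEM expected counts rounded to whole numbers, a replicate block and leaving out each library.

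Genes named are the members, other genes of the stretch with at least 10 counts, the 10 tested genes on each side, up to 4 called genes of each list (2 where none was called) and the 5 genes most like Glo1. Acads, Hagh, Ldhd, Park7, Akr1a1, Akr7a5, Gclc, Dync1h1 and Dync2h1 were added after their values were seen. A gene taken by this rule is not reported here. Members and lists were chosen with earlier results of these data known.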

Additional observations from a re-analysis of the deposited data

How the results depend on the processing

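Glo1 kept a log2 fold change of 1.74 to 1.92 and AC165962.1 of 1.89 to 2.12 under every alternative run, and AC165962.1 and Akr1b3 passed the threshold in all 14. For AC165962.1 these runs use the libraries on which its stretch was chosen, so they cannot remove that choice from its p-value. None of the 20 flanking genes was called in any of the 14. The Zfand3 log2 fold change was -0.08 in TPM with either pseudocount (-0.0798 and -0.0771), and that of Dnah8 was 1.04 and 0.35 (pseudocounts 0.1 and 1). Btbd9 had 1.16 with RSEM counts and 2.27 and 1.84 in TPM. The lower bound of AC165951.1 ran from 7.42 to 8.12 (log2) without single libraries. For Dnah8, at means of 0.550 TPM in SCADD livers and 0.217 TPM in WT livers, adding a pseudocount by itself lowers the ratio. Without a WT library the AC165951.1 bound is lower because the same floor rests on fewer reads. The cause of the other shifts was not tested. Genes called numbered 1702 without a filter, against 947 with it, and 395 to 1590 without single libraries (lowest without WT replicate 2, highest without SCADD replicate 3, 460 without WT replicate 3 and 517 without SCADD replicate 1). Of the methylglyoxal, glutathione and triose genes 7 were called without a filter, against 4 with it, and the cause was not tested. That count was 1 to 5 without single libraries, and 1 without SCADD replicate 1 or without any WT replicate. Fn3krp was lost without any library except SCADD replicate 3 (adjusted p 0.0560 to 0.127), Gsr without SCADD replicate 1 or any WT replicate (0.0526 to 0.116), and Chac1 without any library (0.0597 to 0.171), with DESeq2 (0.0900) and with RSEM counts (0.0641). The strand share differences (SCADD minus WT, percentage points) ran from -0.0522 to 0.0307 for Zfand3 and from -2.52 to 4.77 for Dnah8, and the Zfand3 length difference from -39.9 to 48.8 bases, so their directions rest on single libraries. Same-numbered SCADD and WT libraries deviated together with r of 0.0709, 0.0245 and 0.117, and differently numbered ones with r of -0.157 to 0.0803. These low values show no clear pairing of the animals by number and cannot exclude one. With the replicate block, 1148 genes, 5 of the pathway genes and 0 flanking genes were called, Glo1 was at 1.85, and Chac1 was lost (adjusted p 0.0601).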
